A study of Homo sapiens with 13 samples.

Results

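The E2F transcription factors and the pocket proteins that hold them in check were followed at the RNA level in TE11 cells, a human esophageal squamous carcinoma line, exposed to chloroquine, 5-fluorouracil (5-FU) or both. The 10 genes were chosen by symbol, E2F1 to E2F8, RB1 and RBL2, of 60591 rows in the count table, and all 10 were among the 19514 genes left by a filter on low counts. The 13 libraries of total RNA fell into 4 groups. The combination group (3 libraries) received 10 µM chloroquine with 25 µM 5-FU. The 5-FU group (3 libraries) received 25 µM 5-FU, the chloroquine group (3 libraries) received 10 µM chloroquine, and the vehicle group (4 libraries) received 0.1% DMSO. All exposures lasted 48 h. The question named by the study is whether chloroquine, a drug that blocks acidification of lysosomes, makes 5-FU, an antimetabolite that disturbs thymidylate and RNA synthesis, more effective in these cells. All libraries come from 1 cell line, and nothing in the labels tells whether replicates were cultured apart. The p-values below thus reflect only how far these libraries differ, which may be technical.

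E2F proteins bind DNA as dimers with a DP partner and control genes needed to enter S phase. E2F1, E2F2 and E2F3 are the activators, held by the retinoblastoma protein RB1 until cyclin-dependent kinases phosphorylate it. E2F4 and E2F5 act mainly as repressors with the pocket proteins RBL1 and RBL2, and form with them the DREAM complex, which silences cell cycle genes in quiescence. E2F6 represses through Polycomb partners without a pocket protein, and the atypical E2F7 and E2F8 bind DNA without DP and repress E2F targets, E2F1 among them. E2F1, E2F2 and E2F3 genes are themselves known to be regulated through E2F sites, so the windows just before their start sites are shown.

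The sequences below are 120 bases before an annotated start site on the gene's strand, 5′ to 3′, from RefSeq on GRCh38.p14, and capitals mark an E2F word. The words searched were TTTCCCGC, TTTGGCGC, TTTCGCGC and TTTGCCGC, on both strands, in windows of 300 bases, and 3.31% of 35116 such windows held at least 1. E2F1 (chr20:33686386-33686505, minus strand) held 2 words, at positions -33 and -20 from the start. E2F2 (chr1:23531234-23531353, minus strand) held 1 at position -42, and the first of 2 E2F3 starts (chr6:20401759-20401878, plus strand) held 1 at position -53.
E2F1: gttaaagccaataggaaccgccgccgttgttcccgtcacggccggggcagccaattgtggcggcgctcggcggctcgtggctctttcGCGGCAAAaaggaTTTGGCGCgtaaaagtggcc
E2F2: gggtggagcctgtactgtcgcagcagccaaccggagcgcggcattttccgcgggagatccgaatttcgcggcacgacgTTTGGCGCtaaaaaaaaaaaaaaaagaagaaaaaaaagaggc
E2F3: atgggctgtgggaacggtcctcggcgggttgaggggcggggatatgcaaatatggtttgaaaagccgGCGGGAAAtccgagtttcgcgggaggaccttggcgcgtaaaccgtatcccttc
The windows of the other E2F3 start, of E2F4, E2F6, E2F7 and RBL2, and of an internal start of RB1 held none of these words. No window of E2F5, of E2F8 or of another RB1 start was at hand, so these were not searched. A match is a description of sequence, and binding was not measured here.

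Library totals ran from 17834539 to 23679833 counts. COL1A2, a collagen gene of fibroblasts, had 153 to 741 counts in 5 libraries (combination 2, 5-FU 2, chloroquine 1 and 2, vehicle 4) and 1 to 7 in the other 8. The 8 fibroblast markers summed to 13.8 to 31.1 CPM (counts scaled to a common library total, after TMM scaling) in the combination, 25.7 to 42.0 CPM with 5-FU, 12.8 to 96.0 CPM with chloroquine and 11.6 to 131 CPM in vehicle. None of the 8 markers was at 0 in all libraries of a group. Transcripts of blood cells and pancreas were raised in some of the same 5 libraries. The B cell gene MS4A1 had 7 counts in combination 2, 62 in 5-FU 2, 49 and 31 in chloroquine 1 and 2 and 55 in vehicle 4, and at most 1 elsewhere. The pancreatic gene PRSS1 had 12 counts in 5-FU 2, 18 and 8 in chloroquine 1 and 2 and 16 in vehicle 4. It had at most 1 in every other library, combination 2 included. The amylase gene AMY1A had 2 counts in combination 2, 292 in 5-FU 2, and 247 and 146 in chloroquine 1 and 2. It had 253 in vehicle 4 and at most 4 elsewhere. The hemoglobin gene HBB had 136 and 88 counts in chloroquine 1 and 2 and 203 in vehicle 4, and at most 2 elsewhere. The 8 libraries with little COL1A2, where chloroquine has 1 library, were also fitted alone. Of 12 squamous markers 8 were at 0 in all combination libraries, 6 with 5-FU, 5 with chloroquine and 6 in vehicle, and their sum was 0.389 to 3.73 CPM over all libraries. Markers that define squamous epithelium were among the 12, with at most 3 counts of TP63, 2 of KRT5 and 12 of KRT14. The cells are nevertheless labelled as squamous carcinoma cells. SFN had the most counts of the 12, with 63 to 74 in the combination and 53 to 72 with 5-FU. It had 16 to 26 with chloroquine and 7 to 29 in vehicle. In such bulk RNA, fewer cells of a kind and less RNA per cell cannot be told apart.

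The activator E2F3, whose product drives S phase entry, moved in opposite directions under the single drugs. E2F3 had 61.8, 64.3 and 59.5 CPM in the combination, 59.99, 61.3 and 63.2 CPM with 5-FU, 108, 104 and 109 CPM with chloroquine, and 83.4, 86.2, 83.7 and 80.0 CPM in vehicle. Every chloroquine library lay above every vehicle library, and every library with 5-FU, alone or combined, lay below. Changes were estimated with edgeR's quasi-likelihood test with Benjamini-Hochberg adjustment over all 19514 genes, and a gene was called at an adjusted p under 0.05. E2F3 rose with chloroquine by a log2 fold change of 0.36 ± 0.0468 (SE; adjusted p = 3.72e-05) and fell with 5-FU by 0.44 ± 0.048 on the log2 scale (adjusted p = 2.25e-06). In the combination it fell by 0.43 ± 0.048 on the log2 scale against vehicle (adjusted p = 3.41e-06) and by 0.79 ± 0.0507 against chloroquine alone (adjusted p = 2.71e-08). The combination and 5-FU alone differed by a log2 of 0.0088, with a 95% interval of -0.10 to 0.12.

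E2F2, the least abundant activator, rose under each single drug but not under both. It had 27.6, 26.6 and 27.8 CPM in the combination, 40.5, 34.3 and 36.3 CPM with 5-FU, 39.6, 38.2 and 42.6 CPM with chloroquine, and 29.7, 27.4, 28.5 and 23.9 CPM in vehicle. The single-drug libraries all exceeded the vehicle libraries, whereas the combination libraries fell within the vehicle range. The log2 fold change against vehicle was 0.55 ± 0.0769 with chloroquine (adjusted p = 7.09e-05), 0.43 ± 0.0768 with 5-FU (adjusted p = 0.000201) and -0.0036 in the combination (95% interval -0.17 to 0.16). The combination was lower than 5-FU alone by a log2 fold change of -0.44 ± 0.0818 (adjusted p = 0.000762) and lower than chloroquine alone by -0.55 ± 0.0819 (adjusted p = 6.12e-05).

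E2F1, the activator also known for driving apoptosis genes, had 137, 126 and 146 CPM in the combination, 169, 129 and 145 CPM with 5-FU, 124, 122 and 135 CPM with chloroquine, and 114, 113, 116 and 104 CPM in vehicle. All treated libraries lay above all vehicle libraries, and the treated groups overlapped each other. E2F1 rose with 5-FU (log2 fold change 0.40 ± 0.0803, adjusted p = 0.000616) and in the combination (0.28 ± 0.0805, adjusted p = 0.00852). The value with chloroquine was 0.18 ± 0.0809 and did not pass the test (adjusted p = 0.0959), while 6 of 25 alternatives called it. Without combination 3 the combination value was 0.22 and was no longer called (adjusted p = 0.0543). With chloroquine the value was 0.25 and called (adjusted p = 0.00156) when a term for the 5 libraries with more COL1A2 was added. That split was drawn from the spread within groups of these same data, so this adjusted p may be too small. The chloroquine value was 0.16 and called without 5-FU 1 (adjusted p = 0.0469). Without 5-FU 2 the combination lay below 5-FU alone (-0.21, adjusted p = 0.0487).

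E2F5, a repressor that works with RBL1 and RBL2, was lower by about the same amount in every treated group. It had 24.2, 24.8 and 25.5 CPM in the combination, 23.7, 26.6 and 24.8 CPM with 5-FU, 25.7, 25.1 and 24.8 CPM with chloroquine, and 39.1, 36.4, 36.8 and 39.6 CPM in vehicle. No treated library reached the vehicle range. E2F5 fell by 0.61 ± 0.0562 on the log2 scale in the combination (adjusted p = 4.74e-07), by 0.60 ± 0.0562 with 5-FU (adjusted p = 4.6e-07) and by 0.59 ± 0.0566 with chloroquine (adjusted p = 2.97e-06). The combination differed from 5-FU alone by a log2 of -0.012 (95% interval -0.14 to 0.12) and from chloroquine alone by -0.020 (-0.15 to 0.11). Exons of E2F5 overlap those of RBIS on the opposite strand, which had 545 to 1085 counts against 438 to 768 for E2F5, and the sources used here do not say whether counting used strand. RBIS fell by 0.52 on the log2 scale with chloroquine (adjusted p = 0.00172), had -0.23 with 5-FU (adjusted p = 0.0817) and -0.023 in the combination (adjusted p = 0.876), so RBIS and E2F5 were alike with chloroquine and unlike in the combination. The RBIS interaction, defined below as for the members, was 0.72 (adjusted p = 0.0022), of the same sign as that of E2F5. The part of shared reads was not tested.

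E2F4, the most abundant repressor of the family, was not called in any of the 6 comparisons. It had 97.9, 95.9 and 110.0 CPM in the combination, 115, 96.7 and 104 CPM with 5-FU, 97.1, 99.4 and 99.2 CPM with chloroquine, and 109.9, 110.4, 107 and 105 CPM in vehicle. Its log2 fold change against vehicle was -0.093 (95% interval -0.23 to 0.04) in the combination, -0.035 (-0.17 to 0.10) with 5-FU and -0.13 (-0.27 to 0.0027) with chloroquine. The chloroquine libraries lay below all vehicle libraries, yet the adjusted p was 0.112. That value was -0.15 and called without 5-FU 1 (adjusted p = 0.0321) and without 5-FU 2 (adjusted p = 0.0473). When libraries were scaled by total count only, the value with 5-FU was 0.16 and called (adjusted p = 0.03), while the median of all tested genes then stood at 0.20.

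E2F6, the Polycomb-linked repressor, had 35.1, 31.7 and 34.2 CPM in the combination, 36.6, 37.5 and 39.9 CPM with 5-FU, 28.2, 32.2 and 32.3 CPM with chloroquine, and 34.5, 35.95, 34.1 and 31.0 CPM in vehicle. The 5-FU libraries were the highest, by a small margin over the vehicle range. Its rise with 5-FU was a log2 fold change of 0.17 ± 0.0673 (adjusted p = 0.0456), and 17 of 25 alternative settings did not call it. Leaving out any 1 library ended the call, except vehicle 2, chloroquine 1 and 5-FU 1. The weakest was without 5-FU 3 (0.13, adjusted p = 0.191). In the 8 libraries it was 0.14 (adjusted p = 0.150). The combination stood at -0.17 against 5-FU alone (adjusted p = 0.0692), and it was called lower there in 4 alternative settings. They included library size only (-0.22, adjusted p = 0.0201), the filter at 10 CPM (-0.21, adjusted p = 0.0175) and a term for library kind (-0.18, adjusted p = 0.0339). The last was the 5 libraries alone (-0.24), with 1 combination and 1 5-FU library, so that call carries little weight. In the remaining 4 comparisons E2F6 was not called. Reads of E2F6 may be shared with its processed copies: E2F6P1, E2F6P2 and E2F6P3 together held a mean of 24.3% ± 0.966 of the counts of E2F6 and its copies in the combination, 22.7% ± 0.317 with 5-FU, 24.5% ± 2.86 with chloroquine and 23.7% ± 1.96 in vehicle (SD, n = 3, 3, 3 and 4). Its values are uncertain to that extent.

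The atypical repressors E2F7 and E2F8 went different ways with 5-FU. E2F8 had 30.2, 29.3 and 26.9 CPM in the combination, 39.5, 43.3 and 42.3 CPM with 5-FU, 32.0, 35.1 and 26.4 CPM with chloroquine, and 29.1, 29.2, 28.8 and 30.7 CPM in vehicle. The 5-FU libraries stood above all others, and the combination overlapped vehicle. E2F8 rose with 5-FU (log2 fold change 0.50 ± 0.0796, adjusted p = 7.79e-05), and the combination was lower than 5-FU alone by -0.53 ± 0.085 (adjusted p = 0.000227). Its value was 0.085 ± 0.0817 with chloroquine and -0.031 ± 0.0817 in the combination, neither called. Without chloroquine 3 the combination was lower than chloroquine alone (-0.21, adjusted p = 0.0273).

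E2F7 had 47.1, 41.9 and 38.5 CPM in the combination, 31.7, 40.7 and 40.3 CPM with 5-FU, 52.2, 51.4 and 51.5 CPM with chloroquine, and 40.8, 46.4, 44.7 and 45.1 CPM in vehicle. The chloroquine libraries were the highest, and 5-FU 1 was the lowest. E2F7 fell with 5-FU by 0.23 ± 0.0874 on the log2 scale (adjusted p = 0.031), a call lost in 10 of 25 alternatives. These included leaving out 5-FU 1 (-0.13, adjusted p = 0.138), library size only (-0.043, adjusted p = 0.708) and the filter at 10 CPM (-0.13, adjusted p = 0.172). Leaving out vehicle 2 (adjusted p = 0.0754), vehicle 3 (adjusted p = 0.0603) or vehicle 4 (adjusted p = 0.0576) also ended the call. With chloroquine the E2F7 value was 0.22 ± 0.086 (adjusted p = 0.0519), and 7 of 25 alternatives called it. Among these were library size only (0.32, adjusted p = 0.0101), the filter at 10 CPM (0.28, adjusted p = 0.0129) and leaving out 5-FU 1 (0.21, adjusted p = 0.0149). The combination was lower than chloroquine alone by -0.28 ± 0.0916 (adjusted p = 0.0187), a call lost without combination 3 (-0.21, adjusted p = 0.103), combination 2 (-0.26, adjusted p = 0.0581) or chloroquine 1 (-0.28, adjusted p = 0.0522). It was also lost in the 8 libraries (-0.27, adjusted p = 0.143) and with library size only (-0.23, adjusted p = 0.0552).

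**Figure D1:**
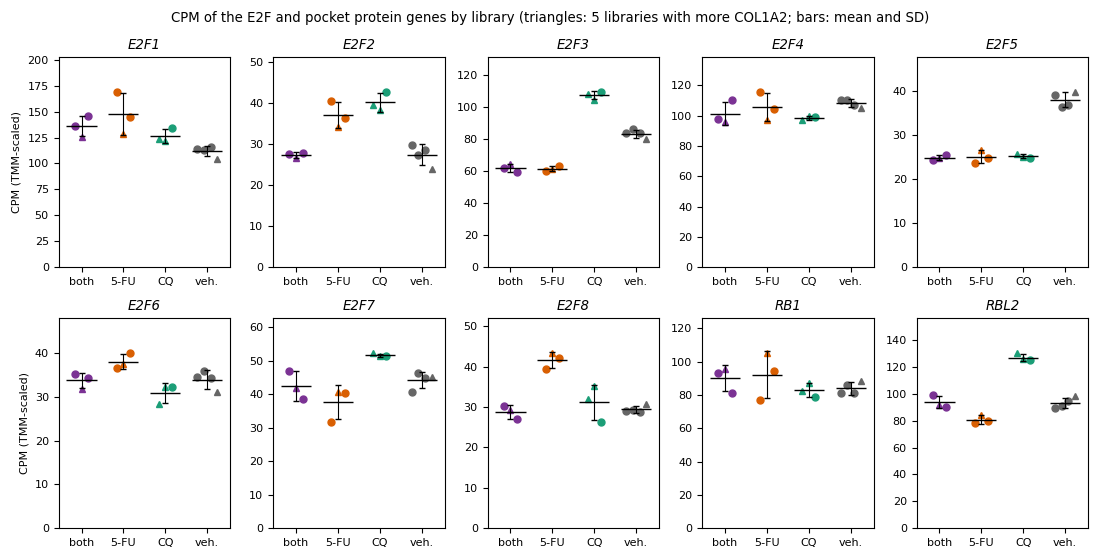
CPM after TMM scaling for each of the 10 genes in every library, by group, with combination (both), 5-FU, chloroquine (CQ) and vehicle (veh.) from left to right. Points are libraries, triangles are the 5 libraries with more COL1A2, and bars are group means with SD. E2F5 lies at 23.7 to 26.6 CPM in all treated libraries, against 36.4 to 39.6 CPM in vehicle, and RBL2 is highest with chloroquine.

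RB1, the pocket protein that binds the activators, was not called in any comparison. It had 93.0, 95.8 and 81.1 CPM in the combination, 77.0, 105 and 94.4 CPM with 5-FU, 82.6, 87.2 and 78.7 CPM with chloroquine, and 81.0, 86.0, 81.0 and 88.7 CPM in vehicle, and all groups overlapped. The 95% intervals of its log2 fold change were -0.10 to 0.29 in the combination, -0.06 to 0.32 with 5-FU and -0.22 to 0.17 with chloroquine. In 4 of 25 alternatives the rise with 5-FU was called. Without 5-FU 1, the lowest library, the 5-FU value was 0.24 (adjusted p = 0.00969). It was 0.32 with library size only (adjusted p = 0.00784) and 0.23 with the filter at 10 CPM (adjusted p = 0.0304). The combination against vehicle was called in 1 of 25 alternatives, library size only (0.25, adjusted p = 0.0377). Against chloroquine alone it was called in 1 of 25, and an alternative called it also against 5-FU alone. The genes RB1-DT and LPAR6 that lie at or within RB1 had at most 12 and 11 counts in a library.

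RBL2, the pocket protein of the DREAM complex, was called in 5 of the 6 comparisons. It had 98.8, 91.7 and 90.5 CPM in the combination, 78.1, 84.4 and 79.9 CPM with 5-FU, 130.0, 126 and 125 CPM with chloroquine, and 89.1, 90.6, 94.5 and 98.0 CPM in vehicle. Chloroquine libraries were above and 5-FU libraries below all vehicle libraries, and the combination overlapped vehicle. RBL2 rose with chloroquine (log2 fold change 0.45 ± 0.0513, adjusted p = 1.33e-05) and fell with 5-FU by 0.20 ± 0.0522 on the log2 scale (adjusted p = 0.00357), with 0.0090 in the combination (95% interval -0.10 to 0.12). The fall with 5-FU was not called with library size only (-0.012, adjusted p = 0.867) or with a filter at 10 CPM (-0.10, adjusted p = 0.0949). The combination was lower than chloroquine alone by -0.44 ± 0.0549 (adjusted p = 1.34e-05). It was higher than 5-FU alone by 0.21 ± 0.0554 (adjusted p = 0.00728), but with replicate numbers as a block in these 2 groups the value was 0.20 and the adjusted p 0.102. AKTIP, which overlaps RBL2 exons on the opposite strand, had 318 to 600 counts against 1587 to 2833 for RBL2. AKTIP fell by 0.21 on the log2 scale with chloroquine (adjusted p = 0.0178), where RBL2 rose. It had 0.096 with 5-FU (adjusted p = 0.194) and rose in the combination against vehicle (0.30, adjusted p = 0.000834). The combination was higher in AKTIP than 5-FU alone (0.20, adjusted p = 0.024), as in RBL2. It was also higher than chloroquine alone (0.51, adjusted p = 2e-05), where RBL2 was lower. The AKTIP interaction was 0.41 (adjusted p = 0.00254). The part of shared reads was not tested for RBL2.

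Counted over the 10 genes, chloroquine had 3 called higher and 1 lower, when 39.4% of all tested genes were called in either direction (20.3% higher and 19.1% lower). With library size only the split was 5 and 1. With 5-FU 4 were called higher and 4 lower, beside 60.3% of all tested genes (30.8% higher and 29.5% lower), and with library size only the split was 6 and 2. In the combination 1 rose and 2 fell, beside 55.4% of all tested genes (28.1% higher and 27.2% lower), and the split was 3 and 2 with library size only. Against 5-FU alone, the combination had 1 gene higher and 2 lower (38.5% of all tested genes called, 20.2% higher and 18.3% lower). Against chloroquine alone, 0 genes were higher and 4 lower (50.6% of all tested genes called, 24.8% higher and 25.7% lower), or 1 and 3 with library size only. The median log2 fold change of the 10 genes was -0.020 in the combination, 0.048 with 5-FU and 0.13 with chloroquine, beside 0.0057, 0.010 and 0.023 for all tested genes. Comparisons against vehicle share the vehicle libraries.

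**Figure D2:**
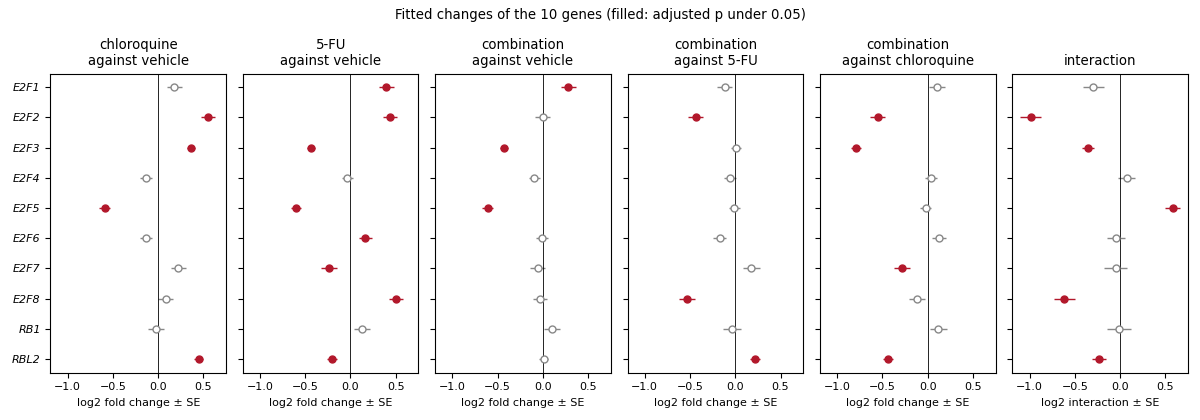
Log2 fold change of each gene in the 5 comparisons between groups and, in the last panel, the interaction, with SE from edgeR. Filled points have an adjusted p under 0.05. E2F5 sits near -0.60 against vehicle in all 3 treatments, while E2F3 and RBL2 lie on opposite sides of 0 with chloroquine and with 5-FU.

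The interaction asks whether the effect of the combination differs from the sum of the single-drug effects on the log2 scale. For E2F2 the single effects summed to 0.99, against a combination effect of -0.0036, and the interaction was -0.99 ± 0.112 (adjusted p = 1.48e-05). For E2F8 the sum was 0.59 and the combination effect -0.031, with an interaction of -0.62 ± 0.118 (adjusted p = 0.000887). In both genes the combination thus stood at the vehicle level although at least 1 drug alone raised the transcript. In the 8 libraries with little COL1A2 the E2F8 interaction was -0.38 (adjusted p = 0.0528).

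For E2F5 the single effects summed to -1.19, against a combination effect of -0.61, and the interaction was 0.58 ± 0.0827 (adjusted p = 9.45e-05). For E2F3 the sum was -0.075 and the combination effect -0.43, an interaction of -0.35 ± 0.0695 (adjusted p = 0.00109). The combination level of E2F3 therefore matched that of 5-FU rather than a midpoint of the opposed single effects. The RBL2 interaction was -0.23 ± 0.0756 (adjusted p = 0.0232), and it was not called in the 8 libraries (-0.19, adjusted p = 0.235) or without filtering (-0.21, adjusted p = 0.138). Leaving out chloroquine 1, 5-FU 2, combination 2 or combination 3 also ended the call, with values of -0.22, -0.19, -0.21 and -0.20 (adjusted p = 0.0620, 0.0536, 0.0678 and 0.0670). E2F1 had -0.30 ± 0.118 (adjusted p = 0.0596), and 7 of 24 alternatives called it. Among these were the fits of the 8 libraries (-0.39) and of the 5 (-0.27). Chloroquine has 1 library in the 8, and every group but chloroquine has 1 in the 5, so these calls carry little weight. The value was -0.37 with a term for library kind (adjusted p = 0.00113). It was -0.44 with library size only (adjusted p = 0.00645), -0.39 with the filter at 10 CPM (adjusted p = 0.00915), -0.27 with no filter (adjusted p = 0.0449) and -0.37 without 5-FU 2 (adjusted p = 0.0102). The interactions of E2F4, E2F6, E2F7 and RB1 ran from -0.048 to 0.074, none called. Of the 10 genes 5 passed the interaction test, 1 above and 4 below 0, beside 39.9% of all tested genes (20.6% above and 19.3% below).

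**Figure D3:**
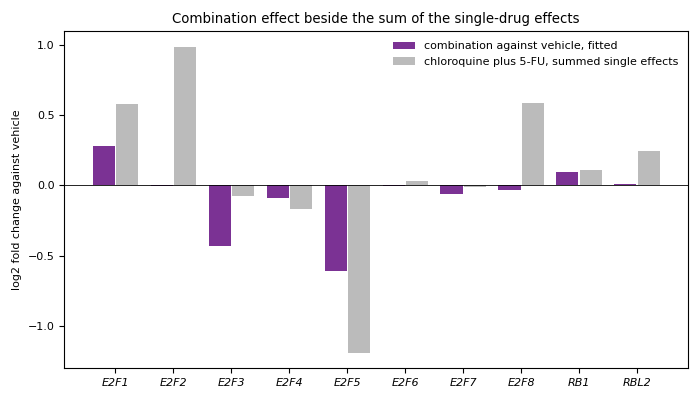
Log2 fold change of the combination against vehicle as fitted (purple) beside the sum of the chloroquine and 5-FU effects (grey), for each gene. The bars part most for E2F2, at -0.0036 and 0.99, and are nearly equal for RB1, at 0.096 and 0.11.

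Levels between genes were compared as CPM per kilobase of the union of annotated exons (GENCODE 29). E2F1 was the most abundant of the 10 in every group, with 54.3 ± 3.9 CPM per kb in the combination, 58.9 ± 8.0 with 5-FU, 50.6 ± 2.8 with chloroquine and 44.7 ± 2.1 in vehicle (SD, n = 3, 3, 3 and 4). E2F4 followed at 30.2 ± 0.73 CPM per kb in vehicle, then E2F3 at 16.1 ± 0.49, RB1 at 13.05 ± 0.60 and RBL2 at 12.7 ± 0.54. E2F6 (8.34 ± 0.51), E2F8 (7.11 ± 0.21), E2F7 (7.02 ± 0.38), E2F5 (6.40 ± 0.27) and E2F2 (5.02 ± 0.46) made up the low end. RB1 and RBL2 did not differ beyond their spread, nor did E2F7 and E2F8. With the longest transcript as length, RBL2 (19.0), RB1 (17.6) and E2F3 (17.5) changed order.

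Of the summed CPM per kb of E2F1 to E2F8, E2F1 held 43.2% ± 1.3 in the combination, 43.0% ± 2.9 with 5-FU, 37.8% ± 1.3 with chloroquine and 35.8% ± 0.80 in vehicle. E2F3 held 9.55% ± 0.78 in the combination, 8.75% ± 0.71 with 5-FU, 15.5% ± 0.30 with chloroquine and 12.9% ± 0.15 in vehicle. E2F5 held 3.33% ± 0.13, 3.11% ± 0.40 and 3.17% ± 0.12 in these treated groups, in the same order, and 5.13% ± 0.34 in vehicle.

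**Figure D4:**
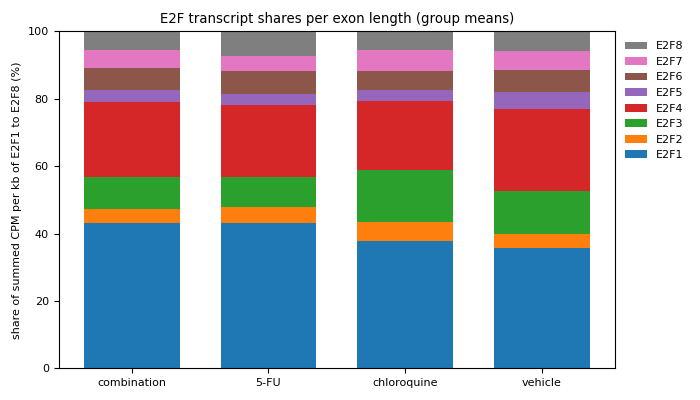
Share of each E2F gene in the summed CPM per kb of E2F1 to E2F8, as group means, with combination, 5-FU, chloroquine and vehicle from left to right. E2F1 is the largest part of every bar, and E2F3 is 15.5% with chloroquine, against 12.9% in vehicle.

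Among the partners and regulators of these proteins, the third pocket protein RBL1 had the same directions as E2F3. RBL1 averaged 43.1 ± 3.99 CPM in the combination, 32.5 ± 1.88 CPM with 5-FU, 64.7 ± 3.94 CPM with chloroquine and 53.2 ± 2.85 CPM in vehicle. It rose with chloroquine (log2 fold change 0.28, adjusted p = 0.00535) and fell with 5-FU by 0.71 on the log2 scale (adjusted p = 1.26e-06) and in the combination by 0.30 (adjusted p = 0.00238). The rise was not called in the 8 libraries (0.21, adjusted p = 0.156), nor the fall in the combination with library size only (-0.15, adjusted p = 0.100). Of the 8 listed genes of RBL1, the MuvB core of DREAM and its activating factors, 6 rose and 1 fell in the combination, 4 rose and 2 fell with 5-FU, and 4 rose and 0 fell with chloroquine. Of all tested genes 55.4%, 60.3% and 39.4% were called in these comparisons. The chloroquine count was 1 in the 8 libraries and 2 with no filter. The splits were 7 and 0, 5 and 1, and 4 and 0 with library size only. MYBL2, a factor that joins MuvB to activate mitotic genes, rose in the combination (0.45) and with chloroquine (0.35), and FOXM1, its partner in that role, rose with 5-FU (0.56, adjusted p = 4.78e-06). The DP partner TFDP2 rose in the combination (0.42, adjusted p = 1.38e-05) and with chloroquine (0.35, adjusted p = 0.00018). TFDP1 fell with 5-FU by 0.14 on the log2 scale (adjusted p = 0.0125), with a sign change to 0.057 under library size only. It was not called in the 8 libraries (-0.13, adjusted p = 0.106), with no filter (-0.15, adjusted p = 0.0793), with the filter at 10 CPM (-0.035, adjusted p = 0.459) or with only the groups compared (-0.13, adjusted p = 0.0568), and TFDP3 did not pass the filter.

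CDKN1A, which encodes the kinase inhibitor p21 that keeps pocket proteins unphosphorylated, had the largest rise among the 15 listed cyclins, kinases and inhibitors in each comparison against vehicle. It averaged 191 ± 8.59 CPM in the combination, 144 ± 13.1 CPM with 5-FU, 70.4 ± 4.99 CPM with chloroquine and 31.7 ± 1.02 CPM in vehicle, log2 fold changes of 2.59, 2.19 and 1.15 in the treated groups (adjusted p = 5.92e-12, 1.27e-11 and 5.45e-08). Cyclin D1 (CCND1), a partner of the kinases that phosphorylate RB1, fell by 1.37 on the log2 scale in the combination (adjusted p = 2.1e-10) and by 0.87 with 5-FU (adjusted p = 1.01e-08). Cyclin D2 (CCND2) fell with 5-FU by 0.93 (adjusted p = 3.11e-08) and rose with chloroquine by 0.35 (adjusted p = 0.00057). Of the 15 genes 4 rose and 6 fell in the combination, 5 rose and 6 fell with 5-FU, and 3 rose and 5 fell with chloroquine, beside 55.4%, 60.3% and 39.4% of all tested genes called. Scaled by library size only, the splits were 5 and 3, 8 and 4, and 5 and 1.

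Of 12 corepressors bound by pocket proteins, 3 rose and 6 fell in the combination, 1 rose and 7 fell with 5-FU, and 1 rose and 3 fell with chloroquine, beside 55.4%, 60.3% and 39.4% of all tested genes called. With library size only the splits were 4 and 4, 4 and 3, and 4 and 1, so the direction of this list depends on the scaling. With RLE size factors 1 rose and 6 fell in the combination, and with the filter at 10 CPM 4 rose and 5 fell with 5-FU and 2 rose and 2 fell with chloroquine. The histone deacetylase HDAC2 fell with 5-FU by 0.47 on the log2 scale (adjusted p = 7.42e-07) and with chloroquine by 0.33 (adjusted p = 6.5e-05). Of 9 partners of E2F6 in the Polycomb complex PRC1.6, 4 rose and 2 fell in the combination, 1 rose and 5 fell with 5-FU, and 2 rose and 3 fell with chloroquine, beside the same shares of all tested genes. The splits were 4 and 1, 1 and 2, and 2 and 2 with library size only. PCGF6, the subunit that defines that complex, fell in the combination by 0.42 on the log2 scale (adjusted p = 0.000207) and with 5-FU by 0.52 (adjusted p = 2.22e-05). Of 6 ubiquitin ligase parts that act on E2F proteins, 0 rose and 5 fell in the combination, 1 rose and 5 fell with 5-FU, and 0 rose and 4 fell with chloroquine, where 27.2%, 29.5% and 19.1% of all tested genes fell. SKP2, known to target E2F1 for degradation, fell with 5-FU by 0.75 on the log2 scale (adjusted p = 5.79e-09), and CCNF, which targets the activator E2Fs, fell in the combination by 0.78 (adjusted p = 2.28e-06) and with chloroquine by 0.64 (adjusted p = 3.8e-05).

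The listed G1/S target genes of E2F were mostly lower in the combination. Of 32 genes, 6 rose and 23 fell in the combination, with a median log2 fold change of -0.30, beside 28.1% up and 27.2% down of all tested genes. With 5-FU 6 rose and 16 fell (median -0.14), and with chloroquine 2 rose and 11 fell (median -0.13), where 29.5% and 19.1% of all tested genes fell. With library size only the splits were 8 and 17, 15 and 11, and 5 and 6, and with the filter at 10 CPM 10 rose and 12 fell with 5-FU and 3 rose and 8 fell with chloroquine. The direction of the list with 5-FU therefore depends on the scaling, under which the median of all tested genes shifted to 0.20. POLA1, the catalytic subunit of DNA polymerase alpha, had the largest fall, to 51.3 ± 4.32 CPM in the combination and 52.3 ± 0.352 CPM with 5-FU, against 131 ± 6.94 CPM in vehicle (log2 fold changes -1.36 and -1.33, adjusted p = 4.54e-10 and 4.67e-10). The ribonucleotide reductase subunit RRM2 fell in the combination by 0.88 on the log2 scale (adjusted p = 8.06e-09). TP73, an apoptosis target of E2F1, rose with 5-FU (0.56, adjusted p = 0.000318) and with chloroquine (0.35, adjusted p = 0.0158; not called in the 8 libraries, 0.24, adjusted p = 0.202, nor without chloroquine 1, 0.31, adjusted p = 0.0690), and the replication licensing factor CDT1 rose with 5-FU (0.55, adjusted p = 0.000422).

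Most called G2/M targets of DREAM were lower under every treatment. Of 24 genes, 0 rose and 15 fell in the combination (median -0.35), 2 rose and 15 fell with 5-FU (median -0.33), and 1 rose and 16 fell with chloroquine (median -0.36). Of all tested genes 27.2%, 29.5% and 19.1% fell in these comparisons. The splits were 2 and 13, 4 and 11, and 1 and 14 with library size only. The 3 proliferation markers MKI67, TOP2A and PCNA summed to 1208 to 1223 CPM in the combination and 1081 to 1240 CPM with 5-FU. The sum was 1397 to 1445 CPM with chloroquine and 1293 to 1390 CPM in vehicle, and none was at 0. TOP2A is also in the G2/M list and PCNA in the G1/S list, and a sum does not show the genes apart. MKI67 had 6779 to 8431 unscaled counts with 5-FU, against 4930 to 7232 in vehicle. PCNA had 7963 to 10504 with 5-FU, against 9345 to 10488 in vehicle. TOP2A had 7577 to 10080 with 5-FU, against 8662 to 9842 in vehicle. TMM factors were 1.06 to 1.08 with 5-FU and 0.925 to 0.947 in vehicle, so equal counts mean fewer CPM with 5-FU. These unscaled ranges therefore do not give the direction of a marker. The 5 broad epithelial markers summed to 79.7 to 82.2 CPM in the combination, 68.3 to 83.4 CPM with 5-FU, 49.4 to 52.8 CPM with chloroquine and 51.1 to 52.7 CPM in vehicle. That sum hides differences between genes. Unscaled, KRT8 had 357 to 389 counts in the combination, 275 to 337 with 5-FU and 54 to 65 in vehicle, and KRT18 and EPCAM were also higher. CDH1 had 37 to 45, 39 to 47 and 43 to 57 in the same order, and KRT19 at most 4 in any library. The part of the proliferation or epithelial markers in the lists' changes was not tested. The mitotic kinase PLK1 averaged 112 ± 4.57 CPM in the combination, 136 ± 19.1 CPM with 5-FU, 128 ± 3.02 CPM with chloroquine and 226 ± 5.73 CPM in vehicle. It fell by 1.01 on the log2 scale in the combination (adjusted p = 5.36e-08) and by 0.83 with chloroquine (adjusted p = 1.69e-06). HMMR, a spindle protein, fell with 5-FU by 0.89 (adjusted p = 2.02e-06) and had an interaction of 0.89 (adjusted p = 0.000192).

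In the interaction 13 of the G2/M genes lay above and 1 below 0 (7 and 2 with library size only), beside 20.6% and 19.3% of all tested genes. Of the G1/S genes 7 lay above and 7 below 0, or 2 and 11 both with library size only and with the filter at 10 CPM. CCNA2, the S and G2 phase cyclin, had 0.59 (adjusted p = 0.000119) and the DNA methyltransferase DNMT1 had -0.46 (adjusted p = 0.000199).

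**Figure D5:**
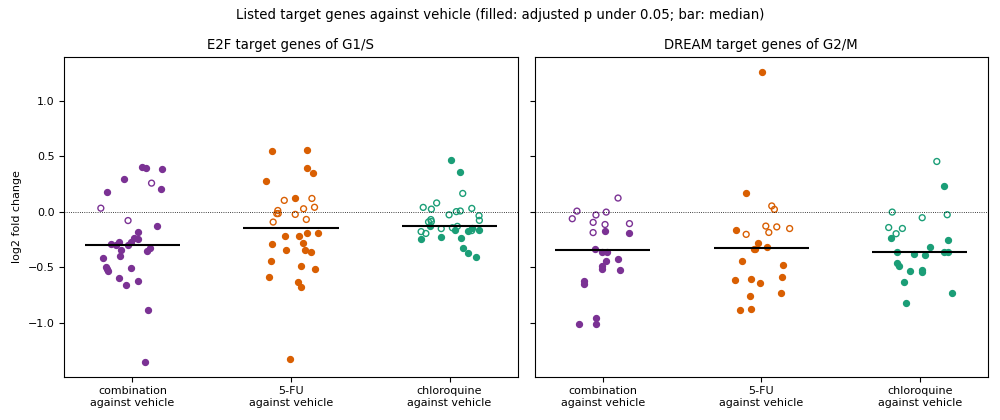
Log2 fold change against vehicle of the 32 listed G1/S genes (left) and 24 listed G2/M genes (right), with the combination, 5-FU and chloroquine from left to right in each panel. Filled points have an adjusted p under 0.05 and bars are medians, which lie at -0.30, -0.14 and -0.13 for G1/S and at -0.35, -0.33 and -0.36 for G2/M.

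The genes most like each member over the 13 libraries, by Pearson correlation of log2 CPM among 13308 genes whose mean log2 CPM reached 1, are given as a description, since libraries share groups and depth. E2F3 was closest to CTH, EIF2D and ZNF367 (r = 0.99 for each), E2F5 to CCT6A, IMMT and CCNH (0.98 for each), and RBL2 to ANK2 (0.99), ATM and PRKG1 (0.98 for each). E2F1 was closest to GPR137 (0.97), E2F2 to MADCAM1 (0.96), E2F4 to PRDX2 (0.97), E2F7 to PLAG1 (0.96) and E2F8 to BTN2A3P (0.97). E2F6, closest to AMZ2P1 (0.90), and RB1, closest to ZNF184 (0.93), had the weakest likeness. Between members, RBL2 went with E2F7 (r = 0.87) and E2F3 (0.84), and E2F1 ran opposite to E2F5 (-0.79).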

How the data were processed

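As deposited by the authors, the data are raw counts of reads for each gene in each library, whole numbers under human gene symbols. The RNA was total RNA and the kit keeps strand, per the labels' protocols. The submitters' processing notes list DESeq and GRCm38, which is a mouse assembly. Neither aligner nor counter, nor whether strand was used, is given in the sources used here. The members, lists and alternatives were chosen with earlier results of these data known.

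Genes with low counts were dropped by filterByExpr. TMM factors scaled the 13 libraries, and edgeR 4.0.16 (R 4.3.3) fitted group means by quasi-likelihood, with p-values adjusted over 19514 genes. SE is the log2 fold change divided by the square root of F. The script was tested on simulated counts, and the pass mark of that test was lowered after its first result, with the fit unchanged. Alternatives used limma 3.58.1, DESeq2 1.42.0, other scalings and filters, and libraries left out. Each member had at least 438 reads in every library. After the data were seen, libraries were split into 8 and 5 by the main axis of variation within groups (61.6% of that variance). A term for this split removes the spread that defined it, so p-values from fits with that term may be too small. Between 5-FU and the combination, deviations from group means correlated at 0.341, 0.743 and 0.339 for replicates 1, 2 and 3. No other pair of groups exceeded 0.1 in all pairs. In both groups replicate 2 was among the 5 libraries and replicates 1 and 3 among the 8, and unlike numbers were not compared. The correlations therefore cannot tell pairing from this split. Numbers served as a block only among the alternatives. Named genes were all members, up to 2 called genes of each list with the largest rise and fall per comparison, and the genes most like each member. Genes overlapping members on the opposite strand were added, with older symbols matched through RefSeq.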

Additional observations from a re-analysis of the deposited data

Results flagged for a closer look

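The interaction of the drugs passed the edgeR test on the log2 scale for 5 of the 10 genes, near the 39.9% of all tested genes that passed it. E2F2 had -0.99 ± 0.112 (adjusted p = 1.48e-05) and E2F8 had -0.62 ± 0.118 (adjusted p = 0.000887). E2F3 had -0.35 ± 0.0695 (adjusted p = 0.00109) and RBL2 had -0.23 ± 0.0756 (adjusted p = 0.0232), the last not called in 7 of 24 alternatives. E2F5 had 0.58 ± 0.0827 (adjusted p = 9.45e-05), the single value above 0. No vehicle library stood apart from the other 3 for any of the 10 genes by Dixon's test, and groups of 3 were not tested.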

How the results depend on the processing

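The calls of E2F2, E2F3 and E2F5 against vehicle with each single drug, of E2F3 and E2F5 in the combination, and of the E2F2, E2F3 and E2F5 interactions were kept in all 24 or 25 alternatives, of which the fit of 5 libraries carries little weight. Over all members and named genes, 83 of 3488 values changed sign, and 80 of these were called under neither setting, with an absolute log2 of at most 0.16. Alternatives for the lists were added after seeing the data. The cause of these changes was not tested.

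With library size only, which moved the median of all tested genes to 0.12 with chloroquine, 0.20 with 5-FU, 0.15 in the combination and -0.14 in the interaction, 5 members were called in the combination against vehicle. Values that changed sign were RB1 0.073 with chloroquine; TFDP1 0.057, LIN54 0.019 and E2F4 0.16 with 5-FU; and E2F2 0.15, E2F4 0.055, E2F6 0.14, E2F7 0.090 and E2F8 0.12 in the combination. E2F3 was -0.035 in the combination against 5-FU, E2F5 0.032 against chloroquine and E2F4 -0.066 in the interaction. With the filter at 10 CPM, RB1 was 0.030 with chloroquine, E2F4 0.066 with 5-FU, and E2F2 0.060, E2F6 0.055, E2F7 0.0049 and E2F8 0.033 in the combination. E2F3 was then -0.027 against 5-FU and E2F4 -0.016 in the interaction.

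The RB1 interaction was 0.00026 with RLE size factors, 0.00066 with the Wald test of DESeq2 and 0.0073 with no filter, where E2F5 was 0.0059 in the combination against 5-FU. With limma-voom E2F2 was 0.00098 in the combination. With only the groups compared E2F2 was 0.0043 in the combination and E2F3 -0.0068 against 5-FU, and 7 members were called with chloroquine. With the replicate number as a block RB1 was 0.0024 with chloroquine, the E2F6 interaction 0.0024, and E2F3 -0.0072 in 5-FU and the combination alone. The block in those 2 groups left 2 members called, having ended the call of RBL2, and changed no other member's call there. The block over all libraries left 6 members called with 5-FU, without E2F6 (0.12, adjusted p = 0.16) and E2F7 (-0.23, adjusted p = 0.0624).

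With library kind (8 or 5) as a term, E2F2 was 0.011 and E2F6 0.00048 in the combination, E2F5 0.0024 against chloroquine and the RB1 interaction 0.058. In the 8 libraries E2F8 was -0.14 with chloroquine and 0.12 in the combination against chloroquine, E2F4 0.0090 with 5-FU, and E2F3 -0.022, E2F5 0.036 and RB1 0.021 in the combination against 5-FU. E2F5 was 0.0067 against chloroquine, and the interactions of E2F7 and RB1 were 0.016 and 0.092. The 5 libraries hold 1 combination, 1 5-FU, 2 chloroquine and 1 vehicle library, so their values compare 1 library with 1 or 2, rest on 1 residual degree of freedom and assume that lone libraries vary like the others. In these E2F2 was 0.16, E2F6 0.040 and RBL2 -0.090 in the combination, and E2F4 -0.026 against chloroquine.

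Leaving out each library gave 4 to 7 members called with chloroquine, 7 without 5-FU 1. Ranges that crossed 0 in the combination against vehicle were -0.065 to 0.038 for E2F2, -0.049 to 0.028 for E2F6, -0.14 to 0.0045 for E2F7, -0.071 to 0.011 for E2F8 and -0.036 to 0.035 for RBL2. Against 5-FU they were -0.022 to 0.034 for E2F3, -0.12 to 0.0075 for E2F4, -0.051 to 0.032 for E2F5 and -0.15 to 0.066 for RB1. Against chloroquine they were -0.014 to 0.086 for E2F4 and -0.029 to 0.0064 for E2F5. With chloroquine alone they were -0.061 to 0.0038 for RB1 and -0.0093 to 0.17 for E2F8, and with 5-FU alone -0.10 to 0.021 for E2F4. Interactions ran from -0.10 to 0.013 for E2F6, -0.14 to 0.031 for E2F7 and -0.11 to 0.10 for RB1.

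List counts moved by over 1.5 times as follows. With library size only, 9 G2/M genes were called in the interaction and 3 PRC1.6 genes with 5-FU. Counts of G1/S genes in the interaction were 9 with no filter, 6 in the 8 libraries, 8 at an adjusted p under 0.01 and 9 to 17 with each library left out. With chloroquine 7 G1/S genes were called in the 8 libraries and 10 to 21 with each library left out, 21 without 5-FU 1. The MuvB and RBL1 list had 2 with no filter, 1 in the 8 libraries, 2 at an adjusted p under 0.01 and 2 to 4 with each library left out. Cyclins, kinases and inhibitors had 3 in the 8 libraries, 5 at an adjusted p under 0.01 and 5 to 8 with each library left out. Corepressors had 2, 2 and 3 to 7 under these settings, and PRC1.6 had 3 at an adjusted p under 0.01.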
